A study of Homo sapiens with 19 samples.

Results

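The genes described here encode the subunits of the oxidative phosphorylation machinery, as measured in 786-O cells, a clear cell renal carcinoma line with defective VHL. They were chosen by symbol alone from the table of counts: NDUFA, NDUFB, NDUFC, NDUFS or NDUFV followed by a digit, SDHA to SDHD, symbols starting with UQCR, CYC1, symbols starting with COX4, COX5, COX6, COX7 or COX8, and symbols starting with ATP5, with NDUFA4L2 and COX4I2 left out. This gave 89 of 23441 genes: 37 of complex I, 4 of complex II, 11 of complex III, 17 of complex IV and 20 of complex V. Of these, 9 are names that fit the rule but are not subunits, such as the pseudogene UQCRBP1, the read-through symbols ATP5J2-PTCD1 and NDUFC2-KCTD14, and COX7A2L, a factor of supercomplex assembly. Subunits encoded by mitochondrial DNA were not analysed here.

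The cells were pools transduced with a pRRL virus that carried no HIF insert (control), HIF-1α (re-expression) or HIF-2α (overexpression), 3 RNA-seq libraries each, and all 3 pools share the VHL defect. The line lacks wild-type HIF-1α, the pools are not clones, and counts of HIF1A and EPAS1 (the gene of HIF-2α) from the virus and from the cell cannot be told apart. Binding sites of both HIF-α isoforms and of their partner HIF-1β came from 7 ChIP-seq libraries, 1 for each antiserum used in a pool. HIF-2α and HIF-1β were precipitated in all pools. HIF-1α was precipitated in HIF-1α re-expressing cells only, so the other pools have no list of HIF-1α peaks. Nothing in the labels says that the replicates were separate cultures, so p-values measure only the spread between these libraries.

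Complexes I to IV form the respiratory chain of the inner mitochondrial membrane. They pass electrons from NADH and succinate to oxygen and, apart from complex II, pump protons, and complex V uses the returning protons to make ATP. HIF-1 is known for turning cells towards glycolysis and for limiting mitochondrial respiration, in part through proteins that stand outside the complexes or replace one of their subunits. In clear cell renal carcinoma low respiratory chain content is a common feature.

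Library totals lay between 27852754 and 54287621 counts. HIF1A was read at 30.4, 36.7 and 152 CPM (counts scaled to the library total with TMM factors) in the 3 control libraries, at 171, 1681 and 472 with HIF-1α re-expression and at 15.3, 30.3 and 17.5 with HIF-2α overexpression. The lowest re-expressing library was thus close to control library 3 in reads of the whole gene, though well above control library 1. The paper reports that the line makes truncated or fused HIF1A transcripts that lack the distal exons. Reads of the whole gene therefore do not measure full-length HIF-1α. EPAS1 was read at 456, 224 and 162 CPM in control, 575, 627 and 397 with HIF-1α and 946, 3243 and 879.7 with HIF-2α, without overlap between HIF-2α and the other pools. Of the markers of the renal line, PAX8, KRT8, KRT18 and VIM were all above 30 CPM in every library, whereas PTPRC, CD3E, PECAM1 and VWF, markers of blood and endothelial cells, were below 1 CPM in every library.

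Of the 89 genes, 81 passed the filter on low counts and were tested among 14225 genes. The other 8 were ATP5EP2, ATP5J2-PTCD1, ATP5L2, NDUFC2-KCTD14 and the tissue-restricted isoforms COX6A2, COX7A1, COX7B2 and COX8C, none of which exceeded 18 counts in any library. COX7A1, the muscle and heart isoform of subunit 7A, had from 0 to 4 counts, while COX7A2, the isoform of other tissues, was read at 146, 109 and 155 CPM in control. COX7B2 had 0 counts in all 9 libraries, where 3 counts, the limit that 0 allows, are worth 0.0558 to 0.105 CPM. COX4I2, the alternative form of subunit 4 known to respond to hypoxia, had 2 counts in HIF-1α library 3 and 0 in the other 8 libraries. NDUFA4L2, a paralogue of NDUFA4 known as a HIF-1 target, was read at 2.12, 0.171 and 0.287 CPM in control, 1.59, 0.961 and 0.577 with HIF-1α and 1.52, 0.767 and 0.308 with HIF-2α, so that the pools overlapped.

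The 5 promoters below are those with a HIF-1α peak midpoint within 5 kb of a start site whose gene was lower with HIF-1α in the test with the replicate block described further on. Each line gives the 250 bases before the start of the canonical transcript, 5′ to 3′ on the strand of the gene, from GRCh37 with starts from GENCODE. Capitals mark the core of the hypoxia response element, searched as ACGTG or GCGTG on both strands, so that the other strand reads CACGT or CACGC.
COX5A (chr15:75230415-75230664, minus strand): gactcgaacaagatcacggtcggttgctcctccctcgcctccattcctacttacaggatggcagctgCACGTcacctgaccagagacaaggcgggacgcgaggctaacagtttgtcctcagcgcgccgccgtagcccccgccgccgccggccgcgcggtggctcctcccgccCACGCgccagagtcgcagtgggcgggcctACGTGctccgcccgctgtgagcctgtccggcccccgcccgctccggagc
ATP5J (chr21:27107216-27107465, minus strand): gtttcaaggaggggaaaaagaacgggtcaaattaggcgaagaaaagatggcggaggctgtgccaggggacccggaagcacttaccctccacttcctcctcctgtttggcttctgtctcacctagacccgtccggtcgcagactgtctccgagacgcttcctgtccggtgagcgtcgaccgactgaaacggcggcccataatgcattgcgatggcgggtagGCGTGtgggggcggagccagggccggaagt
ATP5J2 (chr7:99063791-99064040, minus strand): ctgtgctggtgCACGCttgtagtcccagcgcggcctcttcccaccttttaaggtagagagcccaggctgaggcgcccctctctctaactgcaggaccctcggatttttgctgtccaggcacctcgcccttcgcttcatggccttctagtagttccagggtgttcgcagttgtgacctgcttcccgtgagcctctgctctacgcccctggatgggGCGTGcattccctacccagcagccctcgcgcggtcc
NDUFB2 (chr7:140396258-140396507, plus strand): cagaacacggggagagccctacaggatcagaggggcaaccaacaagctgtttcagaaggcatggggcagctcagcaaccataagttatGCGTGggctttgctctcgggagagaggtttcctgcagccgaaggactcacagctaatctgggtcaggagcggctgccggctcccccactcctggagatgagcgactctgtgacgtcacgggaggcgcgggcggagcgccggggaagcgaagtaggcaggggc
NDUFS6 (chr5:1801271-1801520, plus strand): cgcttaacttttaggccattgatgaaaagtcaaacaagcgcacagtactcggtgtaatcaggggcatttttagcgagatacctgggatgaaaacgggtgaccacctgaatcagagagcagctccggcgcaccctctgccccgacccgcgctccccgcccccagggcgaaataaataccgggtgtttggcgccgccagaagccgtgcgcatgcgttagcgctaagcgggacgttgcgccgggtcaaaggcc
COX5A holds 3 such cores, ATP5J2 2, ATP5J and NDUFB2 1 each and NDUFS6 0. In HIF-1α re-expressing cells a HIF-1β peak also lay within 5 kb at COX5A, ATP5J and NDUFB2, but not at ATP5J2 or NDUFS6. Control cells already had a HIF-1β peak within 5 kb at COX5A, NDUFB2, ATP5J2 and NDUFS6. Whether these sites act on the genes was not tested. A core was found in the same window of 47 of 80 subunit genes (58.8%) and of 57.5% of all 13624 genes with such a window, so the letters alone are frequent. Among genes with a HIF-1α peak within 5 kb it was found in 18 of 23 subunit genes (78.3%) and in 63.7% of all 4324.

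In levels per kb of canonical transcript, the highest of complex V in control were ATP5J2, a subunit of the membrane part, with 441 ± 102 CPM per kb (SD, n = 3), and ATP5B, the catalytic β subunit, with 386 ± 38.1 CPM per kb, with spreads that overlap. COX4I1, the common form of subunit 4, led complex IV with 359 ± 49.6 CPM per kb. UQCRH, the hinge protein, led complex III with 326 ± 54.6, although reads that fit UQCRHL equally well were excluded, so its level is uncertain. In complex I the highest was NDUFS5, an accessory subunit, with 292 ± 80.7, and in complex II SDHC, a membrane anchor, with 95.8 ± 13.4. NDUFS5 was followed by NDUFB9 with 289 ± 51.7 CPM per kb, and COX4I1 by COX6A1 with 344 ± 59.7 CPM per kb, again with overlapping spreads. The order rests on the annotated canonical length, which for some genes (11.7 kb for NDUFS1) is far above the coding part.

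Summed over the 89 genes, the subunits took 8854, 8973 and 11174 CPM in control libraries 1 to 3, 6631, 6128 and 7143 with HIF-1α re-expression and 8587, 6029 and 7238 with HIF-2α overexpression. The HIF-1α libraries all lay below the lowest control, whereas HIF-2α library 1 lay close to it and the other HIF-2α libraries well below. Set against the control with the same number, the HIF-1α sums were 74.9%, 68.3% and 63.9%, and the HIF-2α sums 97%, 67.2% and 64.8%. In bulk RNA, less RNA per cell and fewer cells that express a gene cannot be told apart. Control library 3 had the highest sum of all, and it enters both comparisons with control.

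By complex, the sums with HIF-1α were a mean of 69.3 ± 8.93% of the same-numbered control for complex I (SD, n = 3), 83.5 ± 4.76% for II, 75 ± 6.90% for III, 65.2 ± 2.95% for IV and 66.1 ± 5.44% for V. Complex II, which shares its 4 subunits with the citric acid cycle, stood nearest to control. Differences between complexes were not tested.

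**Figure D1:**
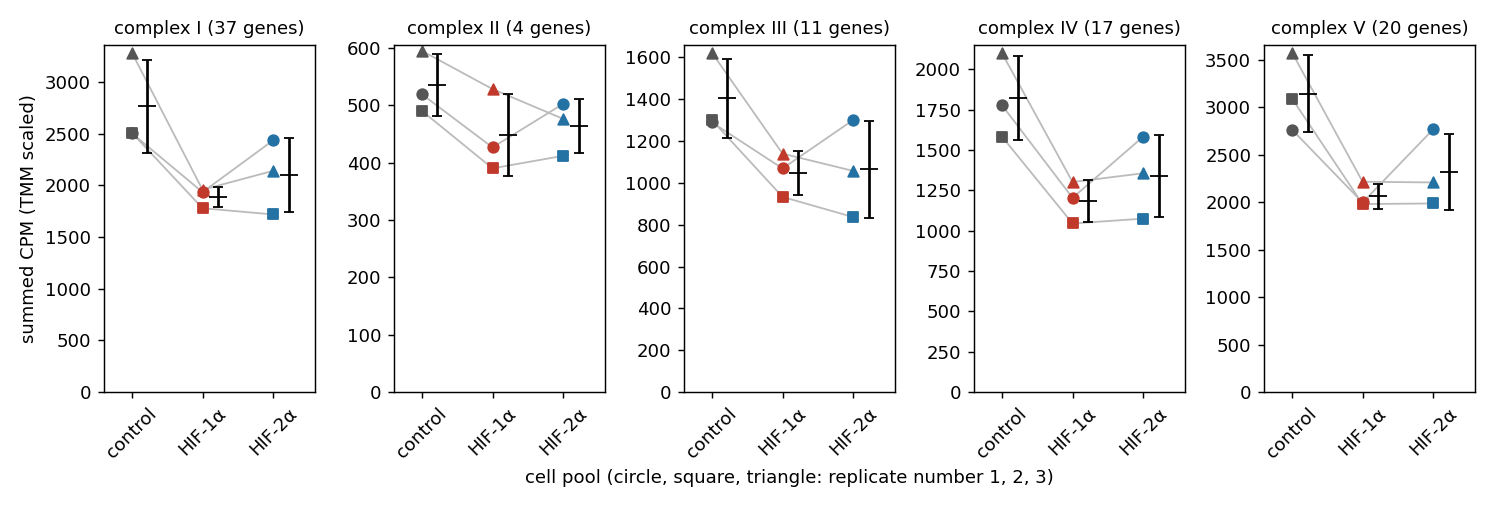
Summed CPM of the genes of each complex (y axis, from 0) in the 9 libraries; grey lines join libraries with the same replicate number, and black marks give mean ± SD of 3 libraries. In complexes I, III, IV and V all HIF-1α libraries lie below all controls, while HIF-2α library 1 lies near the controls.

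HIF-1α re-expression against control asks what the return of the missing isoform does to these genes. Almost all subunit genes were read lower with HIF-1α. The log2 fold change was below 0 for 80 of 81 (against 47.6% of all genes tested), with a median of -0.59, against 0.04 over all genes. The 81 include names that are not subunits, and without these 75 of 76 were below 0, with a median of -0.60. The medians were -0.57 in complex I, -0.22 in II, -0.56 in III, -0.60 in IV and -0.65 in V. In 48 of 81 the 3 HIF-1α libraries lay below the 3 controls without overlap, against 11.2% of all genes. In 71 of 81 each HIF-1α library lay below the control with its number, against 25% of all genes. No subunit gene lay above control without overlap, against 12.9% of all genes.

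None of the 81 passed an adjusted p of 0.05 in edgeR's quasi-likelihood test when the pool was the sole factor, nor did any of the 14225 genes (0%). The smallest adjusted p of a subunit gene was 0.149, and 46 were lower at an unadjusted p under 0.05, against 8.23% of all genes. With the replicate number as a block, 16 of the 81 fell, against 2.55% of all genes, and 0 rose, against 5.41%. How near the shares were among genes of like length and level differed by length. Under 1 kb, 24.4% of the 45 subunit genes were called lower with the block. Of the 309 other genes under 1 kb with a mean of 30 CPM or more, 19.4% were. At 1 to 2 kb it was 5.56% of 18 subunit genes and 10% of 997 such other genes. At 2 to 4 kb it was 30% of 10 and 2.88% of 2226. Over 4 kb it was 12.5% of 8 and 0.911% of 2855. DESeq2 called 13 of the 81 subunit genes lower without the block (1.89% of all genes) and 54 with it (9.35%).

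The number of blocked calls depended on single libraries. Leaving out 1 library left 0 calls for each HIF-1α library, HIF-2α library 1 and control libraries 2 and 3, 8 for HIF-2α library 2, 4 for HIF-2α library 3, and 47 for control library 1. Of all genes, 1.59%, 0.759% and 7.41% were called lower in the last 3 of these fits. The median stayed below 0 in each of these fits, from -0.70 to -0.48.

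The length of the transcript moved with the result. Subunit transcripts are short, with a median of 0.857 kb against 3.30 kb over all genes tested. Among other genes, the median log2 fold change with HIF-1α was -0.37 for canonical transcripts under 1 kb, -0.28 for 1 to 2 kb, -0.06 for 2 to 4 kb and 0.30 for over 4 kb. Among other genes with a mean of 30 CPM or more it was -0.51 under 1 kb, where 93.2% were below 0. The 45 subunit genes under 1 kb had -0.61, the 18 of 1 to 2 kb -0.52, the 10 of 2 to 4 kb -0.65 and the 8 over 4 kb -0.31.

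When the trend on length in each library was put in as an offset, a setting chosen after seeing the data, the median of the subunit genes was -0.35 without the block and -0.35 with it, against -0.09 and -0.09 over all genes. None of the 81 was then called in either fit (edgeR), with 38 lower at an unadjusted p under 0.05 in the blocked one (17.8% of the 13682 genes with a length) and a smallest adjusted p of 0.0509. The part of RNA quality or library preparation in the relation with length was not tested.

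**Figure D2:**
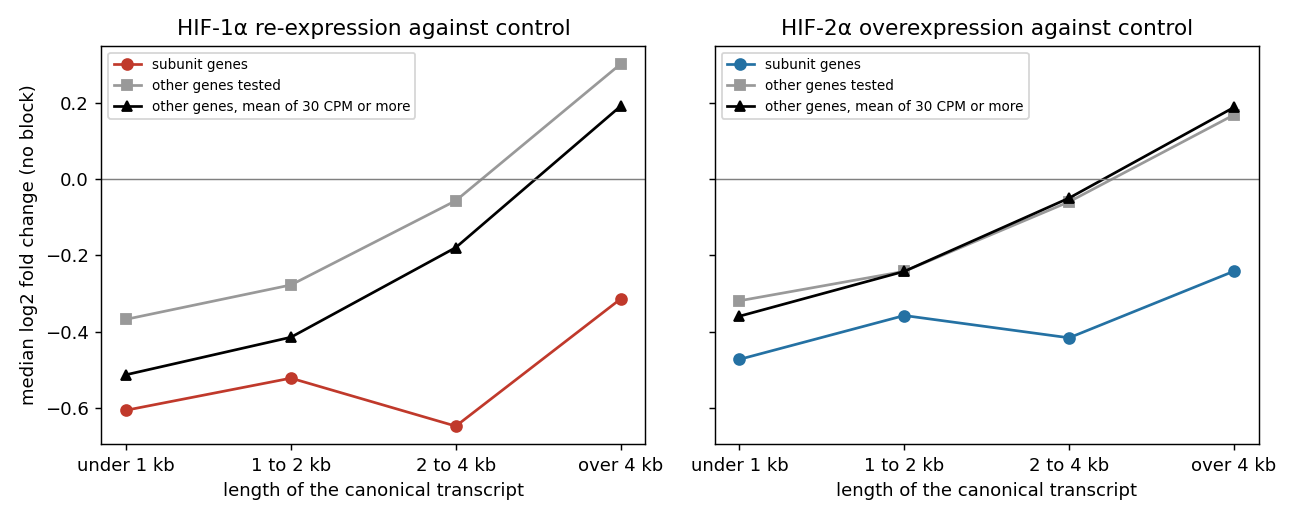
Median log2 fold change (y axis) by length of the canonical transcript (x axis) for subunit genes, other genes tested and other genes with a mean of 30 CPM or more. Other genes move from below 0 for short transcripts to above 0 over 4 kb in both comparisons, and the subunit genes lie below them in every class.

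In complex I, NDUFB2, an accessory subunit of the membrane arm, was read at 119, 122 and 125 CPM in control, 73.3, 61.1 and 44.6 with HIF-1α and 113, 64.9 and 73 with HIF-2α. The HIF-1α libraries lay below the controls without overlap, and the blocked log2 fold change was -1.07 ± 0.21 (SE), adjusted p = 0.0358. NDUFS6, an accessory subunit needed late in assembly, was read at 84, 95.7 and 101 CPM in control and 64.2, 50.1 and 35.7 with HIF-1α, again without overlap (-0.95 ± 0.23 (SE), adjusted p = 0.0431). Of the other accessory subunits, NDUFC2, whose reads could be split with the read-through NDUFC2-KCTD14, changed by -0.81 ± 0.19 (SE), adjusted p = 0.0427. NDUFA8 changed by -0.65 ± 0.15 (SE), adjusted p = 0.0427 and NDUFB11 by -0.69 ± 0.17 (SE), adjusted p = 0.0442. NDUFA9, NDUFB3 and NDUFB9 were also called, which makes 8 of 36.

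Complex IV had 3 calls among 13. COX6C, which lies against the catalytic core, was read at 149.8, 155 and 180.4 CPM in control, 92.5, 81.8 and 97.9 with HIF-1α and 140.5, 106 and 124 with HIF-2α. Control was highest, HIF-2α between and HIF-1α lowest, without overlap between any of the 3 pools, and the blocked change from control to HIF-1α was -0.84 ± 0.16 (SE), adjusted p = 0.0357. COX5A went from 103, 96.3 and 109 CPM in control to 72.2, 51.2 and 50.0 with HIF-1α (-0.85 ± 0.17 (SE), adjusted p = 0.0358). COX6A1, the common form of subunit 6A, went from 190.4, 150.0 and 213 to 108, 102 and 105 CPM (-0.79 ± 0.18 (SE), adjusted p = 0.0410). Both were without overlap.

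COX4I1 was read at 258, 247 and 318 CPM in control and 175, 174 and 193 with HIF-1α, without overlap, and missed the threshold with the block (-0.60 ± 0.18 (SE), adjusted p = 0.0626). NDUFA4, once counted to complex I and now to complex IV, was at 152, 174 and 286 CPM in control and 113, 94.3 and 164 with HIF-1α (-0.71 ± 0.19 (SE), adjusted p = 0.0523), with overlap. COX7A2 gave -0.46 ± 0.16 (SE), adjusted p = 0.0917.

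In complex V, 5 of 17 were called. ATP5J, coupling factor 6 of the peripheral stalk, was read at 94.6, 100.5 and 144 CPM in control and 62.7, 60.1 and 66.6 with HIF-1α (-0.82 ± 0.17 (SE), adjusted p = 0.0366). ATP5J2, whose reads could be split with ATP5J2-PTCD1, was at 154, 188 and 244 CPM in control and 90.4, 114 and 89.5 with HIF-1α (-0.98 ± 0.24 (SE), adjusted p = 0.0427). Neither overlapped control. ATP5F1 of the peripheral stalk, ATP5G2 of the c ring and ATP5E of the central stalk were also called. ATP5G1, a further gene of the c ring, lay just outside the threshold with -0.96 ± 0.26 (SE), adjusted p = 0.0517, while ATP5E lay just inside with -0.63 ± 0.16 (SE), adjusted p = 0.0495.

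**Figure D3:**
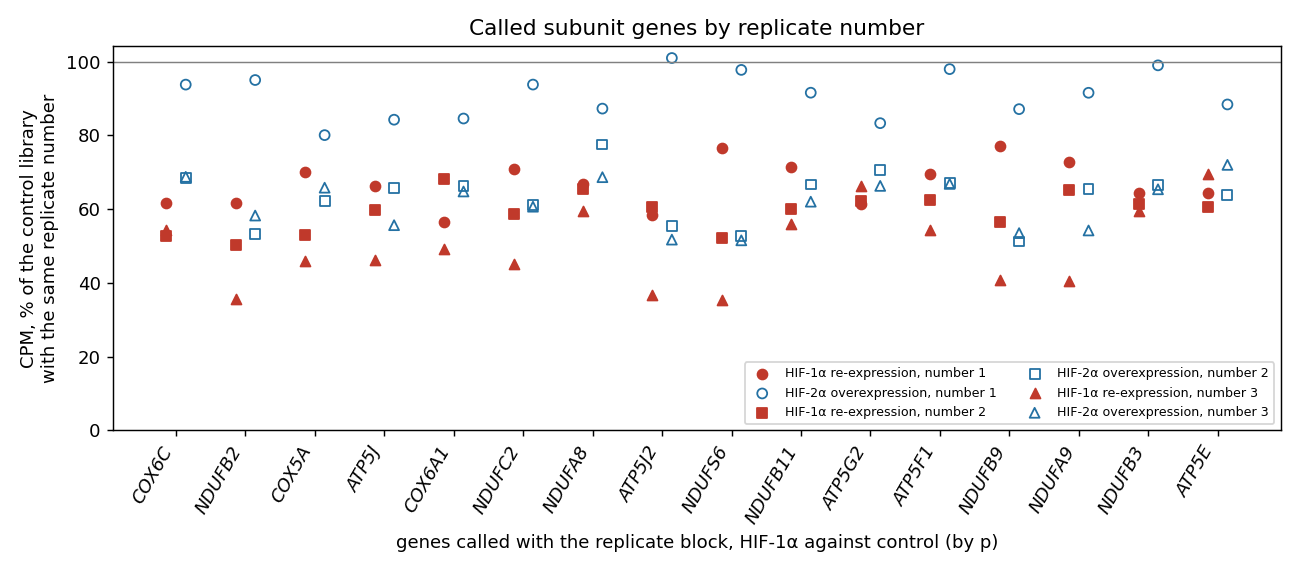
CPM of the 16 genes called with the replicate block, as a percentage of the control library with the same number (y axis, from 0), for HIF-1α (filled) and HIF-2α (open). All HIF-1α values lie below 80%, and HIF-2α library 1 lies above 80% for every gene.

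Complexes II and III had 0 calls among 4 and 11 (edgeR with the block). SDHB, the iron-sulphur subunit of succinate dehydrogenase, was at 88.4, 75.5 and 93.1 CPM in control and 66.8, 54 and 58.3 with HIF-1α, without overlap (-0.52 ± 0.16 (SE), adjusted p = 0.0685). SDHC was at 143, 108 and 125 and 109, 96.3 and 124 CPM, with overlap (-0.19 ± 0.16 (SE), adjusted p = 0.428). CYC1, cytochrome c1, gave -0.61 ± 0.23 (SE), adjusted p = 0.101 and UQCRH -0.64 ± 0.23 (SE), adjusted p = 0.0958.

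The core proteins UQCRC1 and UQCRC2 of complex III were among the genes nearest to 0. UQCRC1 was read at 162, 154 and 186 CPM in control and 166, 133 and 167 with HIF-1α (-0.11 ± 0.17 (SE), adjusted p = 0.669), and UQCRC2 at 144, 119 and 130.1 and 119.6, 94.4 and 145 (-0.14 ± 0.17 (SE), adjusted p = 0.587). ATP5S, a coupling factor B and no subunit of the enzyme, gave 0.01 ± 0.37 (SE), adjusted p = 0.983. Without the block, the single gene with a fold change above 0 was COX6B2, a testis form of subunit 6B named here after its values were seen, which stayed below 2 CPM in every library (1.45 ± 0.95 (SE), adjusted p = 0.408 without the block).

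**Figure D4:**
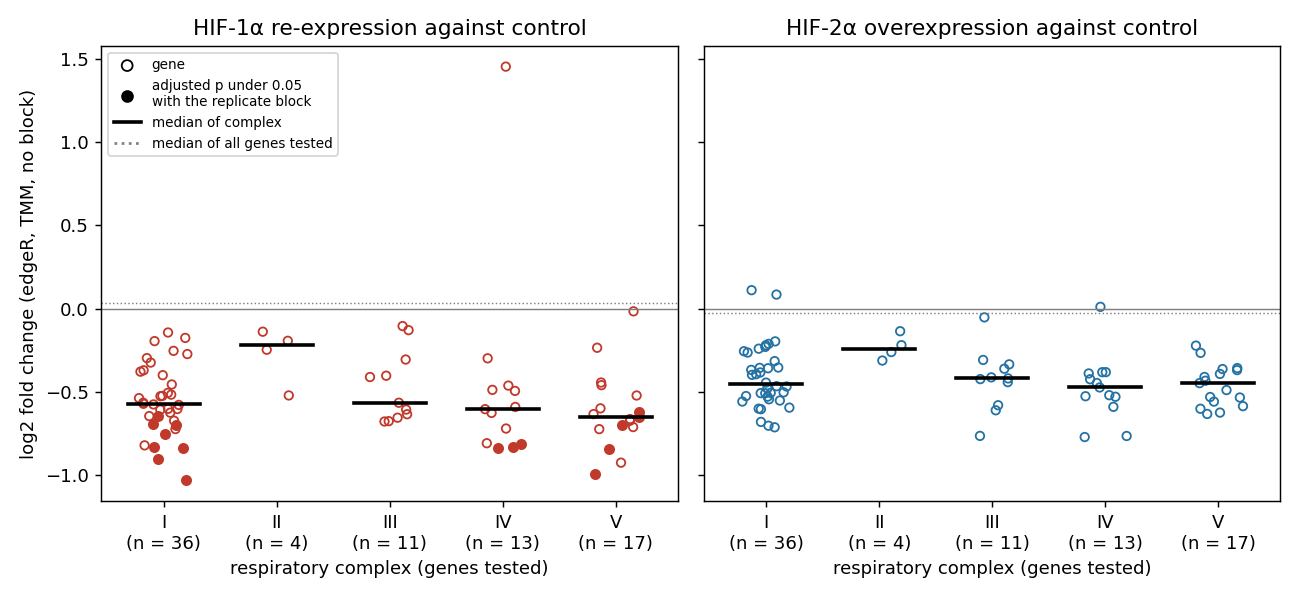
Log2 fold change against control of each tested gene (points, y axis) by complex (x axis), with the median of the complex (black line) and of all genes tested (dotted line). All genes but COX6B2 lie below 0 with HIF-1α, and the filled points mark the 16 genes called with the block.

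HIF-2α overexpression against control used the same 3 control libraries. The log2 fold change was below 0 for 78 of 81 (against 52.5% of all genes), with a median of -0.43 against -0.02 over all genes. By complex the medians were -0.45, -0.24, -0.42, -0.47 and -0.45 from I to V. In 27 of 81 the libraries lay below control without overlap, against 5.19% of all genes, and in 53 each library lay below the control with its number, against 19.4%. The median ratio to the same-numbered control was 95, 67.2 and 65% for numbers 1 to 3, so library 1 stood near its control and the others did not.

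None of the 81 was called by edgeR without the block (of all genes 0%) or with it (0.155% lower). The smallest adjusted p of a subunit gene was 0.788 without the block and 0.177 with it. At an unadjusted p under 0.05 there were 14 without the block (2.54% of all genes, lower) and 47 with it (6.84%), all lower. DESeq2 called 0 without the block (0.176% of all genes, lower) and 1 with it (1.51% of all genes, lower), NDUFA4, with an adjusted p of 0.0323. NDUFA4 was read at 129, 97.5 and 134 CPM with HIF-2α, below its controls without overlap.

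Among genes with a mean of 5 CPM or more in the higher pool, the lowest values after NDUFA4 (-0.76 ± 0.30 (SE), adjusted p = 0.837, edgeR without the block) were those of NDUFB1 (-0.71 ± 0.27 (SE), adjusted p = 0.824) and NDUFA3 (-0.70 ± 0.35 (SE), adjusted p = 0.842), small accessory subunits of complex I. NDUFS1, a core iron-sulphur subunit of complex I, gave 0.11 ± 0.19 (SE), adjusted p = 0.933, NDUFA5 0.08 ± 0.18 (SE), adjusted p = 0.950 and COX7A2L 0.01 ± 0.32 (SE), adjusted p = 0.997, the 3 highest of the genes above this level. The same relation with length was seen: other genes under 1 kb had a median of -0.32 and those over 4 kb 0.17. With the offset for length and no block the median of the subunit genes was -0.21, against -0.01 over all genes. The sign of NDUFS1 and NDUFA5 turned. Subunit genes at an unadjusted p under 0.05 (edgeR, either direction) then numbered 4 without the block and 8 with it. The share of all genes at this p was not taken for these fits.

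HIF-1α against HIF-2α, the direct comparison of the isoforms, called none of the 81 without or with the block (edgeR, of all genes 0.0211% and 1.38% lower), nor did DESeq2 in either fit (0.97% and 4.32% of all genes, lower). At an unadjusted p under 0.05 there was 1 lower and 1 higher without the block (4.6% and 9.04% of all genes), and 5 lower and 1 higher with it (9.68% and 14.6%). In 6 of 81 the HIF-1α libraries lay below the HIF-2α libraries without overlap, against 8.82% of all genes. The median was -0.12 against 0.02 over all genes, with 60 of 81 below 0 (against 48.1% of all genes). It moved with single libraries. Without HIF-2α library 1 it was -0.04, without HIF-2α library 2 -0.28 and without HIF-1α library 3 -0.20. With the block it was -0.14, and 0.01, -0.24 and -0.24 without HIF-2α libraries 1, 2 and 3. With the offset for length the median was -0.14 against -0.10 over all genes, so that the gap between them went from -0.15 to -0.03.

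COX6C came nearest, with -0.44 ± 0.16 (SE), adjusted p = 0.141 with the block. Among genes with a mean of 5 CPM or more in the higher pool, the largest differences without the block were those of NDUFA7 (-0.62 ± 0.31 (SE), adjusted p = 0.410), NDUFB2 (-0.49 ± 0.26 (SE), adjusted p = 0.436) and NDUFA6 (-0.47 ± 0.22 (SE), adjusted p = 0.383) on the lower side, and NDUFC1 (0.36 ± 0.31 (SE), adjusted p = 0.646), UQCRC1 (0.31 ± 0.21 (SE), adjusted p = 0.550) and NDUFA3 (0.30 ± 0.35 (SE), adjusted p = 0.741) on the higher side. A difference between the isoforms in these genes was not detectable beyond the spread of the libraries.

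Other genes of the pathway were read from lists chosen by function, to be set beside the 47.6% of all genes that were below 0 with HIF-1α and the 2.55% called lower with the block. Of 48 assembly factors, 39 were below 0 with HIF-1α (median -0.34), and 7 fell with the block: NDUFAF6, UQCC1, COX14, COX17, COA6, PET100 and TMEM70. TMEM70, needed to assemble complex V, changed by -0.89 ± 0.19 (SE, adjusted p = 0.0366). COX17, a copper chaperone of complex IV, also differed between the isoforms with the block, by -0.66 (adjusted p = 0.0465), and SDHAF1, an assembly factor of complex II, by 1.31 (adjusted p = 0.0382). Without the block the adjusted p-values of edgeR were 0.348 for COX17 and 0.126 for SDHAF1. These blocked calls were 1 of 48 lower, against 1.38% of all genes, and 1 of 48 higher, against 646 of all 14225 genes. The 4 electron carriers gave a median of -0.56 with 0 calls. Of 15 regulators of mitochondrial genes, 8 were below 0 (53.3%, near the share of all genes). Their median was -0.35, against 0.04 over all genes. With the block TFB2M, a mitochondrial transcription factor, fell by 0.88 on the log2 scale (adjusted p = 0.0427, and 0.198 without the block).

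With HIF-2α, 52.5% of all genes were below 0. So were 45 of 48 assembly factors (median -0.29), 3 of 4 electron carriers (-0.14) and 11 of 15 regulators (-0.15). Mitochondrial ribosomal proteins, encoded in the nucleus as the subunits here are, also lay mostly below 0. Of 76, 75 were below 0 with HIF-1α (median -0.58, 12 called lower with the block) and 74 with HIF-2α (median -0.38). Cytosolic ribosomal proteins, whose transcripts are short as well, had 73 of 82 below 0 with HIF-1α (median -0.25, 3 called) and 81 with HIF-2α (median -0.37).

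Binding was read as a peak midpoint within 5 kb of an annotated start site. Any annotated start of a gene could count, and the number of starts was not matched between subunit genes and all genes. HIF-1α peaks in HIF-1α re-expressing cells lay near 23 of 81 (28.4%, 95% Wilson interval 19.7 to 39%) against 31.7% of the 13682 genes tested and placed. They lay within 0.01 kb of a start site at ATP5O, NDUFS3, NDUFV3 and ATP5J, and within 0.11 kb at CYC1, ATP5I, NDUFA13, NDUFA11, COX4I1 and NDUFC1. HIF-1β peaks in the same cells lay near 16 of 81 (19.8%, 95% Wilson interval 12.5 to 29.7%) against 38.1% of the 13682 genes. The HIF-1β interval lies below the share of all genes, and the HIF-1α interval includes it.

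HIF-2α peaks in HIF-2α overexpressing cells lay near 2 of 81 (2.47%, 95% Wilson interval 0.680 to 8.56%) against 11.8% of the 13682 genes, at NDUFB9 and SDHA. The HIF-2α peak of SDHA (chr5:239991-242490) lay near another annotated start than its HIF-1α peak (chr5:217636-220135). In control cells HIF-2α peaks lay near 0 of 81 (0%, 95% Wilson interval 0 to 4.53%) against 3.92% of the 13682 genes, and HIF-1β peaks near 14 of 81 (17.3%, 95% Wilson interval 10.6 to 26.9%) against 22% of the 13682 genes. With 1 library each, the lists carry no score and no replicate, the depth behind them is unknown, and the intervals cover counting error only.

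**Figure D5:**
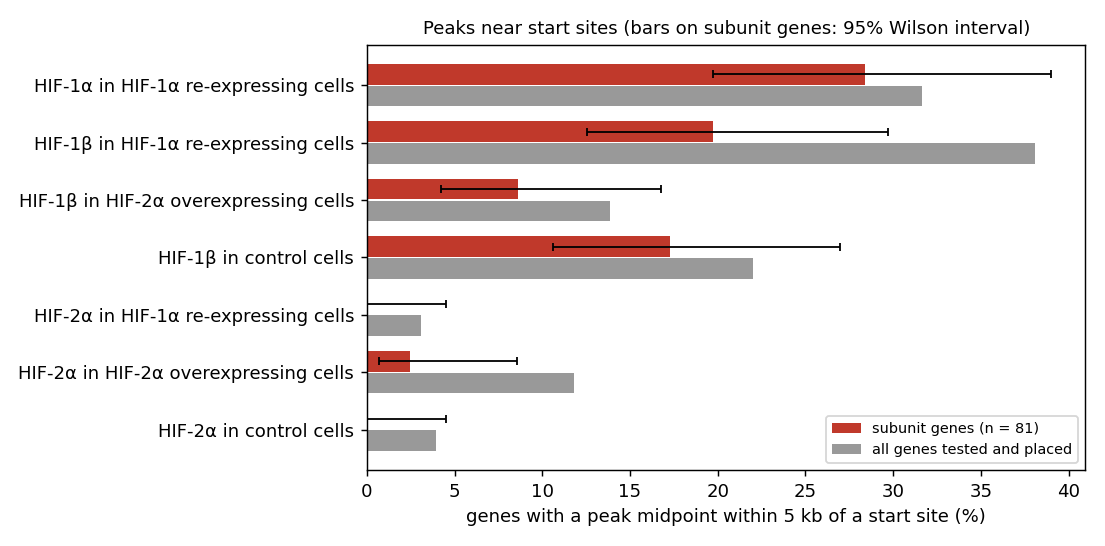
Share of the 81 tested subunit genes (red, with 95% Wilson intervals) and of all genes tested and placed (grey) that have a peak midpoint within 5 kb of a start site (x axis, %), for 7 lists of peaks (y axis). HIF-1α peaks are near 28.4% of subunit genes, and HIF-2α peaks near 2.47% at most.

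The 23 genes with a HIF-1α peak had a median log2 fold change of -0.61 with HIF-1α, and 5 of them were called lower with the block. The 58 without one had -0.55, with 11 called. Of all genes, 2.52% with a peak and 2.68% without were called lower. Over all genes the medians were 0.01 with a peak and 0.04 without. ATP5O, the stalk subunit with the nearest peak, was read at 147, 142 and 188 CPM in control and 109.9, 126 and 112 with HIF-1α (-0.45 ± 0.19 (SE), adjusted p = 0.142).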

How the data were processed

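RNA-seq was read from 9 libraries and peaks from 7 ChIP-seq libraries. The deposited tables hold whole-number counts for each symbol and library, before any scaling. For RNA the study used Trim Galore 0.3.3, TopHat2 2.0.8b with Bowtie 1.0.0, dropped fragments that mapped to several places, and counted with HTSeq 0.5.4p3 in its strict intersection mode, so near-identical and overlapping genes lose reads. The libraries were directional, and the strand setting of the counting is not given in the sources used here. The deposited peak positions were called by both T-PIC and MACS on reads aligned to GRCh37 with BWA 0.7.5a-r405. All windows are 2500 bp wide.

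Counts of all 9 libraries entered 1 fit in edgeR 4.0.16 (R 4.3.3) with the pool as sole factor, TMM scaling, the filter on low counts that edgeR offers and its quasi-likelihood test, two-sided, with Benjamini-Hochberg adjustment over 14225 genes and a threshold of 0.05. DESeq2 1.42.0 was an alternative. Totals were 27852754 to 54287621 counts per library. Replicates differed beyond sampling noise (chi-square per degree of freedom 164 to 423). The replicate numbers paired the libraries: after pool means were subtracted, same-numbered libraries of different pools correlated at 0.348 to 0.652 over 9 pairs, the others at -0.478 to 0.0281 over 18 pairs. Deviations cancel within a pool, so positive same-numbered values push the others down. The 18 pairs are thus not separate support. Fold changes of single genes in the text are with the block for HIF-1α against control, and without it in the other comparisons, unless stated. The fit was also run on simulated counts with known changes in genes drawn at random. These counts held no trend on transcript length between pools, so the run cannot speak for the part of length in the calls.

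Symbols were matched to GENCODE lifted to GRCh37 by the same symbol (20383) or an older one (1388), and 1670 of 23441 were not matched. The length is that of the canonical transcript. Members and lists were chosen with earlier results of these data known. Genes named were, for each comparison, up to 10 called ones by blocked p, the 3 highest and 3 lowest fold changes at 5 CPM or more, the highest per kb of each complex over the 3 pools, a short list of isoforms, and up to 10 genes nearest a HIF-α peak.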

Additional observations from a re-analysis of the deposited data

How the results depend on the processing

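Fits with an offset for transcript length, with library totals and the block together, or without all 3 libraries of 1 number were added after seeing the data. Of the values of named genes under the alternatives, 883 kept their direction and their side of the threshold, 54 passed it only under an alternative and 23 turned sign, none of them called. The main fits called none of these genes, so keeping a side means only that a gene stayed uncalled. With HIF-1α against control, edgeR called 0 of all genes, DESeq2 759, edgeR with the replicate block 1132, DESeq2 with the block 3010, the length offset with the block 80, and library totals with the block 1129. Subunit genes called were 0, 13, 16, 54, 0 and 16. The 16 blocked calls became 0 without the replicate block, ranged from 0 to 47 when 1 library was left out, and were 1, 0 and 0 without the libraries numbered 1, 2 and 3. The median of the subunit genes was -0.35 with the length offset, with or without the block, and from -0.66 to -0.44 when 1 library was left out. With HIF-2α against control, all genes called went from 0 to 60 (DESeq2), 1 (no filter on low counts), 38 (replicate block), 482 (DESeq2 with the block), 2 (only both pools compared), 33 (length offset with the block) and 41 (library totals with the block), and from 0 to 2 when 1 library was left out. The block with DESeq2 called 1 subunit gene. With HIF-1α against HIF-2α, 7 genes became 603, 82, 843, 1777, 0, 946 and 852 in the same order, and 0 to 29 when 1 library was left out. Within 10 kb, 6 subunit genes had a HIF-2α peak in HIF-2α overexpressing cells (7.41%, 95% Wilson interval 3.44 to 15.2%, against 14.6% of all genes, which that interval includes, unlike at 5 kb) and 2 in control cells (2.47% against 5.35%). Log2 fold changes that turned sign with HIF-1α were those of ATP5S (0.013 with the block, 0.017 with library totals and the block, -0.34 to 0.44 with 1 library left out), UQCRC1 (0.038 and 0.033 with the length offset, without and with the block), NDUFC1 (0.12 and 0.10 likewise, -0.39 to 0.11 with 1 library left out), NDUFA3 (-0.60 to 0.060) and COX7A2L (-0.47 to 0.054). With HIF-2α they were those of UQCRC2 (0.094 and 0.083 with the length offset, -0.20 to 0.093 with 1 library left out), NDUFS1 (-0.17 and -0.18), NDUFA5 (-0.046 and -0.064, -0.0086 to 0.18), NDUFA7 (0.058 and 0.026, -0.52 to 0.064), ATP5S (-0.43 to 0.24) and COX7A2L (-0.20 to 0.37). In the other comparisons the block in edgeR changed no call of a subunit gene. The cause was not tested. Replicates differed by more than counting noise, and the part of depth in the calls was not tested.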
